A study of Mus musculus with 2 samples.

Results

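A set of 4 genes for CXC chemokine ligands (Cxcl2, Cxcl10, Cxcl13 and Cxcl16) and 4 genes for their receptors (Cxcr3, Cxcr4, Cxcr5 and Cxcr6) were examined, 8 of the 32285 genes in the count tables, chosen by symbol and all found. The cells were CD45+ brain cells of 12-week-old mice, sorted and tagged per mouse, so that 8 mice could be sequenced in 1 pool from the 3′ end of their transcripts. Both groups carried floxed Arpc4 alleles (Arpc4 fl/fl), which encode a subunit of the Arp2/3 actin nucleator. The 4 control mice were littermates without Cre, and the 4 Arpc4ΔCx3cr1 mice carried the Cx3cr1-Cre transgene, so the deletion and the transgene cannot be told apart in these samples. The Cx3cr1 promoter drives Cre in microglia from early development and also in other brain macrophages and some blood-derived myeloid cells. The 8 mice were the replicates. Xist stood at 1276 CPM (UMIs of a gene per 1000000 UMIs of all genes, where a unique molecular identifier, UMI, stands for 1 captured RNA molecule) in Arpc4ΔCx3cr1 mouse 1 and at 4.30 to 13.6 in the other 7 mice. Xist is transcribed from the inactive X chromosome of females. The methods of the study mention a female among the Arpc4ΔCx3cr1 mice that was left out there, and the labels do not say which mouse it was. The Xist level points to mouse 1, whose values may therefore hold a difference of sex. All 8 mice were used, and the tests of the member genes and of the ligand shares were also run without each mouse in turn.

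CXC chemokines are small secreted proteins that steer leukocytes through G protein-coupled receptors. CXCL10 is induced by interferons and attracts T cells that carry CXCR3, CXCL13 attracts B cells through CXCR5, and CXCL2 attracts neutrophils through CXCR2. CXCL16 is made as a membrane-anchored protein that can be shed, binds CXCR6 on T cells and also acts as a scavenger receptor on macrophages, and CXCR4 is the receptor of CXCL12. Cxcl2, Cxcl10 and Cxcl13 all lie on chromosome 5 (mm10: 90903871 to 90905938 on the plus strand, 92346638 to 92348889 on the minus strand and 95956951 to 95961068 on the plus strand). Cxcl16 lies on chromosome 11 (70453983 to 70459984, minus strand). The receptor genes are Cxcr3 on chromosome X (101731535 to 101734269, minus strand), Cxcr4 on chromosome 1 (128588199 to 128592293, minus strand), and Cxcr5 and Cxcr6 on chromosome 9 (44511787 to 44561877, minus strand, and 123806475 to 123811760, plus strand). None overlapped another annotated gene on its own strand.

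After filtering, 19863 of 19864 deposited cells were kept (9443 from control and 10420 from Arpc4ΔCx3cr1 mice), and no barcode was shared between mice. UMIs on genes summed to 5251527 to 12874659 per mouse. Clusters were named from marker genes. The microglia-like class held 17036 cells, the CAM-like class (CNS-associated macrophages) 409, the monocyte-like class 347, the T cell-like class 309, proliferating cells 94, granulocyte-like cells 80 and B cell-like cells 78, and 1510 cells stayed unnamed. In microglia-like cells Arpc4 was lower in Arpc4ΔCx3cr1 mice (log2 fold change −0.63, standard error (SE) 0.05, adjusted p = 5.95e-06, quasi-likelihood test of edgeR, Benjamini-Hochberg adjusted over all tested genes). All 10 microglia markers were detected in both genotypes, and their summed level was 22229 to 22526 CPM in control and 8740 to 12586 CPM in Arpc4ΔCx3cr1 microglia-like cells. Barcodes of at most 100 UMIs, taken as empty droplets, held the ligands too, at 4.67 CPM for Cxcl2, 63.2 for Cxcl10, 146 for Cxcl13 and 247 for Cxcl16, so some free RNA of these genes was in the droplets of both genotypes.

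To see which ligands differed between genotypes, UMIs were summed per mouse over microglia-like cells. The 4 ligand genes were all higher in Arpc4ΔCx3cr1 microglia-like cells, as was the receptor gene Cxcr4, while Cxcr3 and Cxcr5 were lower. Of the 12729 genes tested, 22.8% were called higher and 23.2% lower, so a change in either direction was common among all genes, and the size of the ligand changes has to be read beside that. Over all tested genes the median log2 fold change was −0.01, and over the 4 ligand genes it was 3.65. The ligand median is a description only, since the members were chosen with earlier results of these data known. Cxcl2, at 0.103 to 0.237 CPM in control mice, had enough counts to be tested only through the Arpc4ΔCx3cr1 mice, where it was higher. Without Arpc4ΔCx3cr1 mouse 1 the log2 fold changes were 4.63 for Cxcl2, 3.12 for Cxcl10, 4.36 for Cxcl13, 2.56 for Cxcl16 and 3.41 for Cxcr4, all still called.

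Cxcl16 was the most abundant ligand in UMIs, which count 3′ ends and do not scale with transcript length. Its level was 58.6, 49.6, 64.2 and 58.5 CPM in control mice 1 to 4 and 346, 296, 290 and 358 CPM in Arpc4ΔCx3cr1 mice 1 to 4. The mice of each genotype lay close together and the genotypes were far apart. The log2 fold change was 2.59 (SE 0.10, adjusted p = 5.87e-08, edgeR).

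Cxcl13 stood at 25.6, 10.9, 10.2 and 11.7 CPM in the control mice and at 125, 218, 164 and 374 CPM in the Arpc4ΔCx3cr1 mice. The Arpc4ΔCx3cr1 mice varied widely among themselves, with mouse 4 highest, but each exceeded every control mouse. The log2 fold change was 4.12 (SE 0.39, adjusted p = 1.14e-05, edgeR). It moved to 4.98 when the 5% of cells with the most UMIs were removed.

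Cxcl10 stood at 9.97, 7.23, 13 and 9.09 CPM in control and at 90.5, 104, 40.7 and 93.8 CPM in Arpc4ΔCx3cr1 mice. Arpc4ΔCx3cr1 mouse 3 was the lowest of its group and still above all controls. The log2 fold change was 3.17 (SE 0.29, adjusted p = 9.13e-06, edgeR). Without the same 5% of cells it was 3.81.

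Cxcl2 was rare, with 1, 1, 2 and 2 UMIs in the control mice and 70, 23, 58 and 73 UMIs in the Arpc4ΔCx3cr1 mice. These counts correspond to 0.103 to 0.237 CPM in control and 2.29 to 6.52 CPM in Arpc4ΔCx3cr1 mice, so that the groups did not overlap. Pooled over mice the ratio of rates was 27.4 (95% counting interval 12.4 to 75.5), and the edgeR log2 fold change was 4.77 (SE 0.49, adjusted p = 2.08e-05). With 10% of each sum taken as free RNA and removed, the log2 fold changes were 4.58 for Cxcl10 and 3.30 for Cxcl16. For Cxcl2, Cxcl13 and Cxcr4 this removal left all but 1 of the control sums at or near 0, so no size is given.

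**Figure D1:**
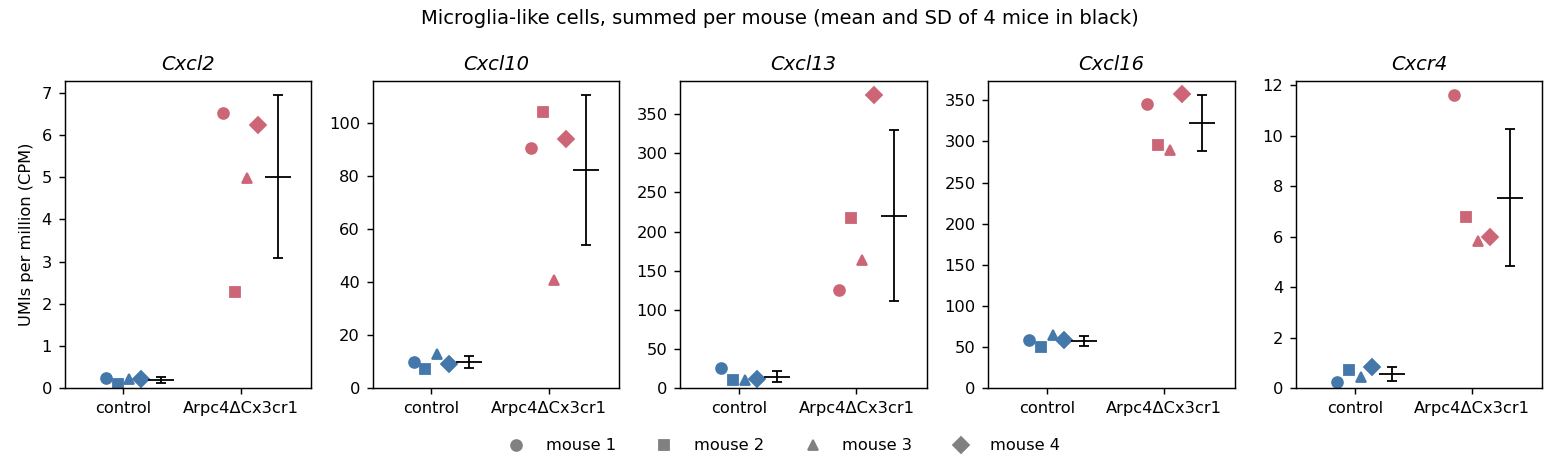
Level of the 4 ligand genes in microglia-like cells of each mouse, in CPM on linear axes that start at 0, with Cxcr4 in the last panel. Points are the 4 control and 4 Arpc4ΔCx3cr1 mice, and black marks give mean and SD of each group. In each panel all Arpc4ΔCx3cr1 mice lie above all control mice, for Cxcl16 at 290 to 358 against 49.6 to 64.2 CPM.

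The bases upstream of the ligand genes are given because the motifs in them are those bound by the interferon-activated factors (interferon-stimulated response element, ISRE) and by NF-κB, whose target genes were examined alongside. The windows are from RefSeq on GRCm38.p6 (the build of mm10), run 5′ to 3′ on the strand of the gene and end at the annotated transcript start. Of the 8 genes 6 had such a window. Capitals mark matches to GAAANNGAAA (ISRE) or GGGANNNNCC (κB), searched on both strands. Positions are counted upstream from the RefSeq start.
Cxcl10 (chr5:92348890-92349139, minus strand): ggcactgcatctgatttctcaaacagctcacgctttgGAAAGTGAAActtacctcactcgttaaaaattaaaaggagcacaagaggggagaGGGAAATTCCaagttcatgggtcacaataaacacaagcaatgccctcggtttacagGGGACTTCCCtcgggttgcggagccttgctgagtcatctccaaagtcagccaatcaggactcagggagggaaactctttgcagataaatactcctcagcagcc
Cxcl2 (chr5:90903649-90903870, plus strand): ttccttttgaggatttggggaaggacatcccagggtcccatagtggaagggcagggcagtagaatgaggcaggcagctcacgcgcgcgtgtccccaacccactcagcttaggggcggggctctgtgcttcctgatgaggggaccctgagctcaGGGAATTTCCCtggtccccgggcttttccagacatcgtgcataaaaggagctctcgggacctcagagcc
Cxcl13 (chr5:95956689-95956938, plus strand): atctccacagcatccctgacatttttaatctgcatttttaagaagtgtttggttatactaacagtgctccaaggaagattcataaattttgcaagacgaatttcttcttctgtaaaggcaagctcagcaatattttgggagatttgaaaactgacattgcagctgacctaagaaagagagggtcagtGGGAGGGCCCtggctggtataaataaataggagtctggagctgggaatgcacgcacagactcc
The Cxcl10 window held an ISRE match at 213 to 204 bases upstream and κB matches at 159 to 150 and at 103 to 94. The Cxcl2 window held a pair of κB matches that overlap each other, at 97 to 88 and 96 to 87, and the Cxcl13 window held a κB match at 63 to 54. Among 32851 windows of 250 bases upstream of annotated starts, 2.98% held an ISRE match and 17.6% a κB match. The windows of Cxcr3, Cxcr4 and Cxcr6 held neither. These matches are descriptions of letters, and binding was not measured.

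A higher level could come from more cells with the transcript or from more UMIs in such cells. Each cell was therefore thinned to 2000 UMIs, which left out 287 control and 330 Arpc4ΔCx3cr1 cells. A Cxcl16 UMI was then found in 8.78, 9.47, 10.4 and 9.33% of control cells and in 47.8, 38.4, 40.1 and 45.6% of Arpc4ΔCx3cr1 cells of mice 1 to 4. A Cxcl13 UMI was found in 1.24, 0.861, 0.992 and 0.902% of control cells and in 8.34, 8.25, 10.8 and 17.7% of Arpc4ΔCx3cr1 cells. Cxcl16 transcripts were thus spread over a large part of the Arpc4ΔCx3cr1 microglia-like cells, and Cxcl13 over a smaller one.

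The share with a Cxcl10 UMI was 0.741% ± 0.283 (SD, n = 4) in control and 2.70% ± 0.771 (SD, n = 4) in Arpc4ΔCx3cr1 mice. For Cxcl2 the shares were 0.0715% ± 0.0296 and 0.545% ± 0.289 (SD, n = 4 each). Without thinning the shares were 1.16% and 3.74% for Cxcl10, 1.73% and 15.5% for Cxcl13, 17.7% and 66.0% for Cxcl16, and 0.0803% and 0.824% for Cxcl2. The groups did not overlap for any of the 4 ligands, and the exact two-sided permutation test gave p = 0.0286 for each (n = 4 and 4), the smallest p this design allows. Of all 12729 genes, 14.4% had shares higher in Arpc4ΔCx3cr1 mice without overlap and 26.2% had shares lower without overlap.

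For comparison, the thinned shares in the T cell-like class of both genotypes (median 4493 UMIs per cell, against 4054 in microglia-like cells) were 0.337% for Cxcl2, 3.03% for Cxcl10, 2.36% for Cxcl13 and 9.43% for Cxcl16. In control microglia-like cells the shares for Cxcl2, Cxcl10 and Cxcl13 were below these, and the mean share for Cxcl16, 9.51%, lay within the exact 95% interval of the T cell-like share (6.36 to 13.3%), so none of the control shares is read as expression. The Arpc4ΔCx3cr1 shares for Cxcl2 and Cxcl10 also lay within the T cell-like intervals (0.00852 to 1.86% and 1.39 to 5.67%), whereas those for Cxcl13 and Cxcl16 lay above theirs (up to 4.80% and 13.3%). The intervals for Cxcl2 and Cxcl10 rested on 1 and 9 positive cells of 297. They are wide, so a share within them does not tell whether the gene was expressed. Cxcl10 UMIs were gathered in few cells. In Arpc4ΔCx3cr1 microglia-like cells 3581 UMIs lay in 347 of 9241 cells, up to 129 in a cell, and the 35 cells with the most held 61.1% of them. In Arpc4ΔCx3cr1 T cell-like cells they were as uneven, with 90 UMIs in 7 of 176 cells. Cxcl13 was also uneven, with 9811 UMIs in 1436 cells, up to 155 in a cell, and 52.4% of them in 144 cells. Cxcl16 was even, with 14231 UMIs in 6094 cells and at most 17 in a cell. The 224 Cxcl2 UMIs lay in 75 cells.

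**Figure D2:**
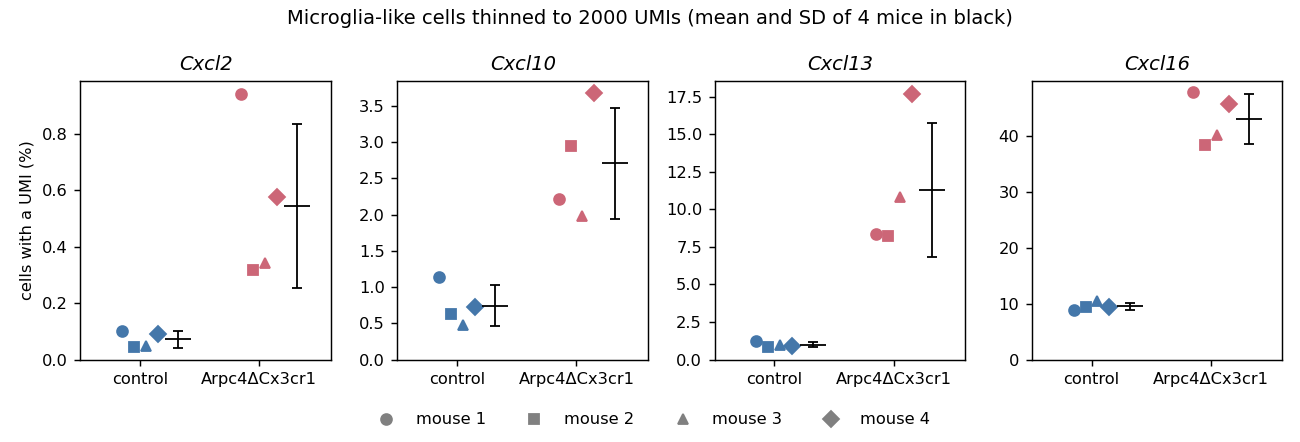
Share of microglia-like cells with at least 1 UMI of each ligand gene after thinning every cell to 2000 UMIs, in percent, with 1 point per mouse and mean and SD of each genotype in black. The mean Cxcl16 share goes from 9.51% in control to 43.0% in Arpc4ΔCx3cr1 mice, while the Cxcl2 share stays under 1% in every mouse.

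Microglia-like cells were then clustered again, with all CXC genes and Arpc4 left out, to see where the transcripts lay. Of 12 clusters, 8 were mostly of Arpc4ΔCx3cr1 cells, and the ligands did not share one place. The levels across clusters are a description with no test. In the cluster led by the interferon-stimulated genes Ifit3, Rsad2 and Iigp1 (551 cells), Cxcl10 stood at 1179 ± 411 CPM (SD, n = 4) in Arpc4ΔCx3cr1 cells, and 32.0% of these cells held a UMI. This cluster made up 5.49% of the Arpc4ΔCx3cr1 microglia-like cells and held 86.0% of their Cxcl10 UMIs. The next cluster, led by the chemokine genes Ccl4 and Ccl3, had 79.0 ± 42.5 CPM (SD, n = 4).

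Cxcl2 lay mainly in the cluster led by Ms4a7 (1464 cells), with 32.6 ± 12.6 CPM (SD, n = 4). It held 63.8% of the Cxcl2 UMIs of Arpc4ΔCx3cr1 cells in 15.5% of the cells. The same cluster had the highest Cxcl16 level, 591 ± 99.0 CPM (SD, n = 4), followed by the Ccl4-led cluster with 461 ± 48.8, and the lowest mouse of the former and the highest of the latter were both at 506 CPM. The Ms4a7-led cluster was also led by the haemoglobin genes Hbb-bs and Hba-a1 and by the MHC class II gene H2-Aa, and the part of these in the ligand levels was not tested.

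Cxcl13 was spread over several clusters. It stood at 337 ± 120 CPM (SD, n = 4) in the interferon-led cluster, at 333 ± 111 in the cluster led by Ttr and Cst7 and at 332 ± 225 in the cluster led by Cst7 and Lgals3, which did not differ beyond their spread. The cluster led by Ctnna3 and Tafa1, which held 34.1% of the Arpc4ΔCx3cr1 cells, had 253 ± 141 CPM and 51.3% of the Cxcl13 UMIs. In the Ms4a7-led cluster Cxcl13 was lower, at 62.8 ± 46.9 CPM. A cluster led by Xist and Fn1 came to 97.2% from Arpc4ΔCx3cr1 mouse 1, and a cluster led by Arhgap15 and Negr1 came to 65.4% from Arpc4ΔCx3cr1 mouse 2, so levels in these describe single mice.

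**Figure D3:**
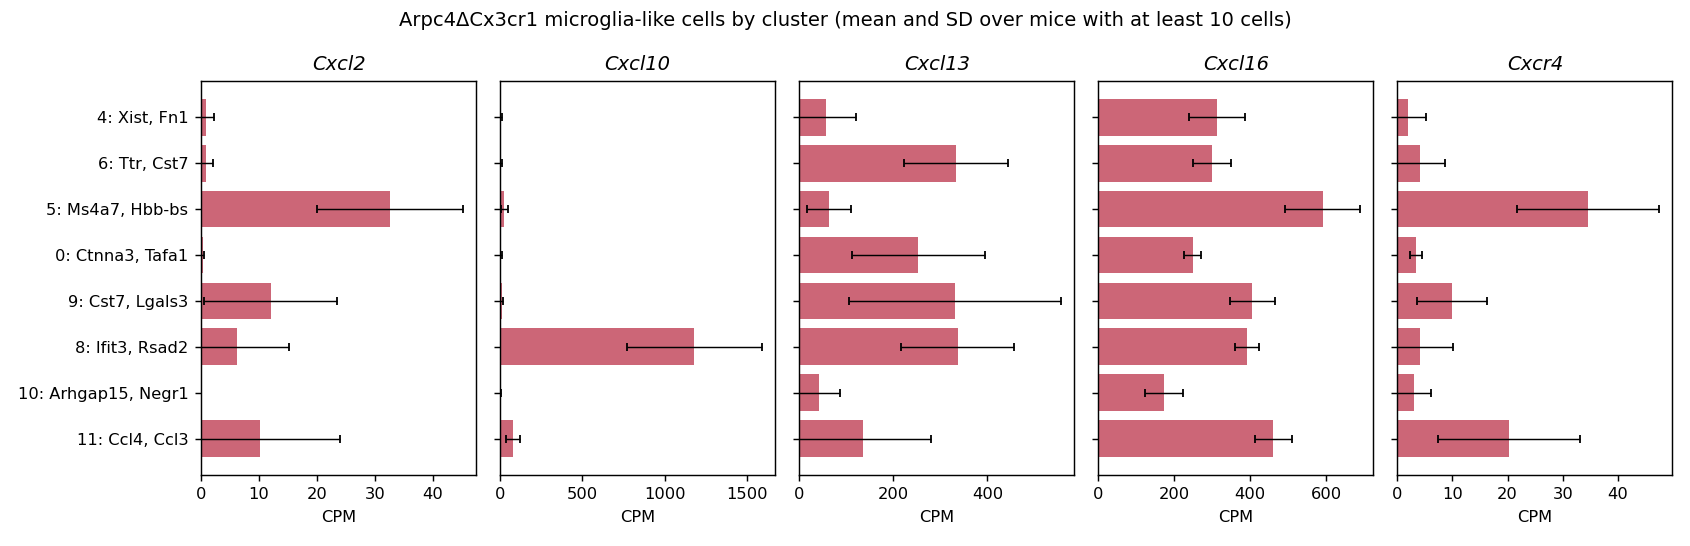
Level of the 4 ligand genes and Cxcr4 in Arpc4ΔCx3cr1 cells of the 8 microglia clusters that are mostly of such cells, in CPM. Bars are means over the mice with at least 10 cells in the cluster and error bars the SD, ended at 0 where it would go below. Cxcl10 reaches 1179 CPM in the Ifit3-led cluster, Cxcl2 and Cxcr4 peak in the Ms4a7-led cluster at 32.6 and 34.6 CPM, and Cxcl16 is at 173 CPM or more in all 8.

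Some control cells fell into the clusters that were mostly of Arpc4ΔCx3cr1 cells. They were 5.02% of the control microglia-like cells and held 79.4% of the control Cxcl13 UMIs, 74.0% of the control Cxcl10 UMIs and 27.8% of the control Cxcl16 UMIs. Outside those clusters control microglia-like cells had 2.88 CPM of Cxcl13, 2.74 CPM of Cxcl10 and 44.9 CPM of Cxcl16. In the Ifit3-led cluster 44 control cells, 0.564% of their class, held 46.3% of the control Cxcl10 UMIs.

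To describe which other transcripts accompanied each ligand in a cell, thinned Arpc4ΔCx3cr1 microglia-like cells with and without a UMI of the ligand were compared within each mouse, as means over 4 mice. Cells with a Cxcl10 UMI (241 cells) held Isg15 in 59.2%, against 13% of cells without it, Ifit3 in 50% against 9.56% and Rsad2 in 36.4% against 3.12%. These 3 interferon-stimulated genes were more frequent in the Cxcl10-positive cells in 4 of 4 mice. Transcripts of Cxcl9, a further CXCR3 ligand, were found in 6.04% against 0.625%, and those of the cytokine Tnf in 18.4% against 3.62%, also in 4 of 4 mice. Most genes of the NF-κB list were more frequent too, with Nfkbia in 48.7% against 23.9%, Ccl4 in 46.2% against 17.1% and Icam1 in 29.8% against 14.8%, each in 4 of 4 mice. Il1a was higher in 3 of 4 mice, Rela in 2 of 4 and Ptgs2 in 0 of 4. For Cst7, a marker of reactive microglia, the shares were 36.9% and 42.9%, higher in 1 of 4 mice.

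Cells with a Cxcl2 UMI were few (48 cells). They held Nfkbia, an inhibitor and target of NF-κB, in 74.8% against 24.4%, Ccl4 in 65.1% against 17.6%, Tnf in 35.9% against 3.87% and Il1b in 38.0% against 11.7%, each in 4 of 4 mice. The NF-κB list was not uniform either. Il1a, Tnfaip3 and Zfp36 were higher in 3 of 4 mice, Rela in 2 of 4, Nfkb2 in 1 of 4 and Ptgs2 in 0 of 4. Ms4a7 was found in 56.9% against 20% (4 of 4 mice) and Cst7 in 19.1% against 42.8%, higher in 0 of 4 mice. The interferon-stimulated list was mixed. Isg15 was found in 20% against 14.2% (4 of 4 mice) and Ifit3 in 15.5% against 10.6% (4 of 4). Bst2 was found in 85.3% against 63.8%, Rtp4 in 33.0% against 17.9% and Ifi211 in 19.8% against 9.10%, each in 4 of 4 mice. Ifit1, Ifit3b and Oasl1 were higher in 1 of 4 mice. Usp18 was found in 13.3% against 13.8% (higher in 2 of 4 mice) and Stat2 in 1.25% against 11.2% (higher in 0 of 4). Cxcl10 itself was found in 28.6% against 2.60% (4 of 4 mice), so the cells with Cxcl2 and those with Cxcl10 overlapped in part.

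The 1011 cells with a Cxcl13 UMI showed the opposite order for Cst7 and Ms4a7. Cst7 was found in 54.2% against 41.3% (higher in 4 of 4 mice) and Ms4a7 in 14.6% against 20.9% (higher in 0 of 4). In the 3825 Cxcl16-positive cells Ms4a7 was found in 27.6% against 14.4%. All cells of these comparisons had the same depth after thinning.

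**Figure D4:**
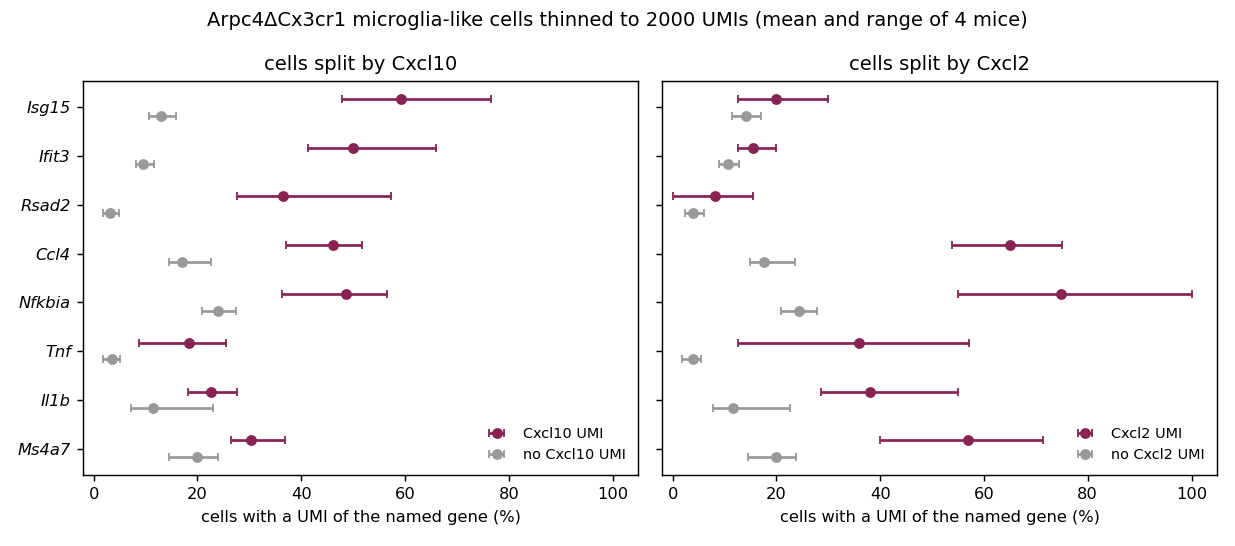
Share of Arpc4ΔCx3cr1 microglia-like cells with a UMI of selected genes, in percent, among cells with and without a Cxcl10 UMI (left) or a Cxcl2 UMI (right) after thinning to 2000 UMIs. Points are means over 4 mice and bars the range. Isg15 is at 59.2% against 13% in the Cxcl10 panel and at 20% against 14.2% in the Cxcl2 panel, while Nfkbia is higher in the positive cells of both (48.7% against 23.9% and 74.8% against 24.4%).

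Across 69 sums of UMIs per mouse and microglia cluster, which share mice and library, the genes whose level was most like that of each ligand were Ifit1 (Pearson's r = 0.725), Tor3a and Rsad2 for Cxcl10, C3 (r = 0.851), Rxrg and Mcemp1 for Cxcl13, Axl (r = 0.895), Cybb and Cd52 for Cxcl16, and mt-Co3 (r = 0.617), mt-Atp6 and Fth1 for Cxcl2.

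The pathway genes around the ligands were counted in microglia-like cells as lists. All 19 tested genes of the interferon-stimulated list rose (median log2 fold change 3.13), among them Ifi44 (4.85, SE 0.26), Ifi211 (3.97, SE 0.31) and Oasl1 (3.88, SE 0.41). Of 16 tested NF-κB and inflammatory genes 11 rose and 1 fell (median 0.73), led by Il1b with 4.63 ± 0.769 CPM in control and 101 ± 79.2 CPM in Arpc4ΔCx3cr1 mice (SD, n = 4 each). The genes for the macrophage chemokines Ccl4 (log2 fold change 2.65, SE 0.25) and Ccl3 (2.04, SE 0.28) followed. Adjusted p from edgeR ranged from 2.72e-07 for Ifi44 to 1.44e-04 for Ccl3 among these 6 genes.

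Proteases that cleave or shed chemokines moved less. Of 5 tested genes 3 rose, the cathepsin genes Ctsb (log2 fold change 0.79, SE 0.07) and Ctsl (0.40, SE 0.06) and the sheddase gene Adam17 (0.23, SE 0.07). Adam10, which encodes the main sheddase of CXCL16, was at 296 CPM in control and 278 CPM in Arpc4ΔCx3cr1 microglia-like cells (adjusted p = 0.116, edgeR). Of 27 tested genes for signalling downstream of chemokine receptors 6 rose and 14 fell, beside 22.8% and 23.2% of all tested genes, so that the rises were near the share over all genes. The genes furthest from 0 were Rgs2 (log2 fold change −0.79, SE 0.07) and Grk2 (−0.69, SE 0.05), which encode proteins that dampen receptor signalling, and the kinase gene Ptk2b (0.68, SE 0.07).

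Other CXC genes were mostly too rare to test. Of 10 further ligand genes 4 could be tested and 2 rose. Cxcl14 went from 1.68 to 32.9 CPM (log2 fold change 4.48, SE 0.27, adjusted p = 6.21e-07, edgeR) and Cxcl9 from 3.42 to 12.9 CPM (1.92, SE 0.63, adjusted p = 0.0291, edgeR). Pf4 (log2 fold change −0.20, adjusted p = 0.814) and Cxcl17 (0.53, adjusted p = 0.130) did not pass the test. Ackr3, an atypical receptor that takes up CXCL12, rose (1.88, SE 0.62, adjusted p = 0.0289, edgeR), whereas Cxcl12 itself had 7 UMIs in control and none in Arpc4ΔCx3cr1 microglia-like cells.

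Among receptors in microglia-like cells Cxcr4 changed most. Its level was 0.237, 0.723, 0.443 and 0.846 CPM in control and 11.6, 6.78, 5.84 and 5.99 CPM in Arpc4ΔCx3cr1 mice. The genotypes did not overlap, with mouse 1 highest among the Arpc4ΔCx3cr1 mice. On 20 and 331 UMIs the ratio of rates was 12.2 (95% counting interval 7.74 to 20.2), and the log2 fold change was 3.70 (SE 0.36, adjusted p = 1.25e-05, edgeR). The thinned share of cells with a Cxcr4 UMI was 0.0684% ± 0.0582 in control and 1.62% ± 0.744 in Arpc4ΔCx3cr1 mice (SD, n = 4 each, exact permutation p = 0.0286), beside 2.36% in T cell-like and 10.2% in monocyte-like cells. The Ms4a7-led cluster held 46.5% of the Cxcr4 UMIs of Arpc4ΔCx3cr1 cells (34.6 ± 12.9 CPM), and the Ccl4-led cluster was at 20.2 ± 12.9 CPM (SD, n = 4 each).

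Cxcr3 and Cxcr5 were near the limit of detection in microglia-like cells. Cxcr5 was at 4.75, 2.69, 2.66 and 3.81 CPM in control and 1.77, 1.99, 1.89 and 0.684 CPM in Arpc4ΔCx3cr1 mice, without overlap (log2 fold change −0.98, SE 0.32, adjusted p = 0.0281, edgeR). Cxcr3 was at 1.66, 1.76, 1.44 and 1.80 CPM in control and 0.652, 1.40, 0.602 and 0.684 CPM in Arpc4ΔCx3cr1 mice, also without overlap (−0.90, SE 0.30, adjusted p = 0.0298, edgeR). Both calls were close to the threshold and were lost when some mice were left out singly. The log2 fold change then stayed at −1.09 to −0.72 for Cxcr5 and at −1.23 to −0.78 for Cxcr3. The adjusted p of Cxcr5 was 0.0698 without control mouse 1 and 0.0789 without control mouse 4. That of Cxcr3 was 0.0535, 0.0715 and 0.0769 without control mice 1, 2 and 4, and 0.0631, 0.0760 and 0.0787 without Arpc4ΔCx3cr1 mice 1, 3 and 4. In empty droplets Cxcr4 stood at 7.59 CPM, near the Arpc4ΔCx3cr1 mean of 7.57 and above the control mean of 0.562 CPM. Cxcr5 stood there at 4.23 and Cxcr3 at 4.38 CPM, above the mean of both groups (3.48 and 1.58 CPM for Cxcr5, 1.66 and 0.835 CPM for Cxcr3). Cxcr6 had 28 UMIs in control and 37 in Arpc4ΔCx3cr1 microglia-like cells, too few to be tested. Of the 28 control UMIs 23 (82.1%) lay in the cluster led by Csmd3 and Bank1. That cluster held 35.2% of the control microglia-like cells.

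Across cell classes the receptors were ordered by lineage, described here with no test. Cxcr6 was at 398 CPM in the pooled T cell-like cells (mouse range 295 to 540) and at no more than 5.42 CPM in any other named class. After thinning, 49.5% of T cell-like cells held a Cxcr6 UMI (exact 95% interval 43.7 to 55.3) against 0.116% of microglia-like cells, with median depths of 4493 and 4054 UMIs per cell. Cxcr3 was at 98.1 CPM in T cell-like cells (mouse range 60.4 to 137), at 19.7 CPM in CAM-like cells (14 to 28.9) and at 7.55 CPM in monocyte-like cells. The thinned shares for Cxcr3 were 16.8% in T cell-like, 2.82% in CAM-like and 0.250% in microglia-like cells.

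Cxcr5 was highest in B cell-like cells, with 60.0 CPM on 21 UMIs in 14 of 78 cells (17.9%, exact 95% interval 10.2 to 28.3). CAM-like cells came next with 4.19 CPM. Cxcr4 was shared between classes, at 44.0 CPM in monocyte-like, 42.9 in B cell-like and 37.3 in granulocyte-like cells, 3 neighbours in the order whose mouse ranges overlapped. It stood at 14.4 CPM in T cell-like and 13.8 CPM in CAM-like cells. Cxcr2, the receptor of CXCL2, was found in 82.5% of granulocyte-like cells (265 CPM) and at no more than 0.628 CPM in microglia-like, CAM-like and monocyte-like cells.

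**Figure D5:**
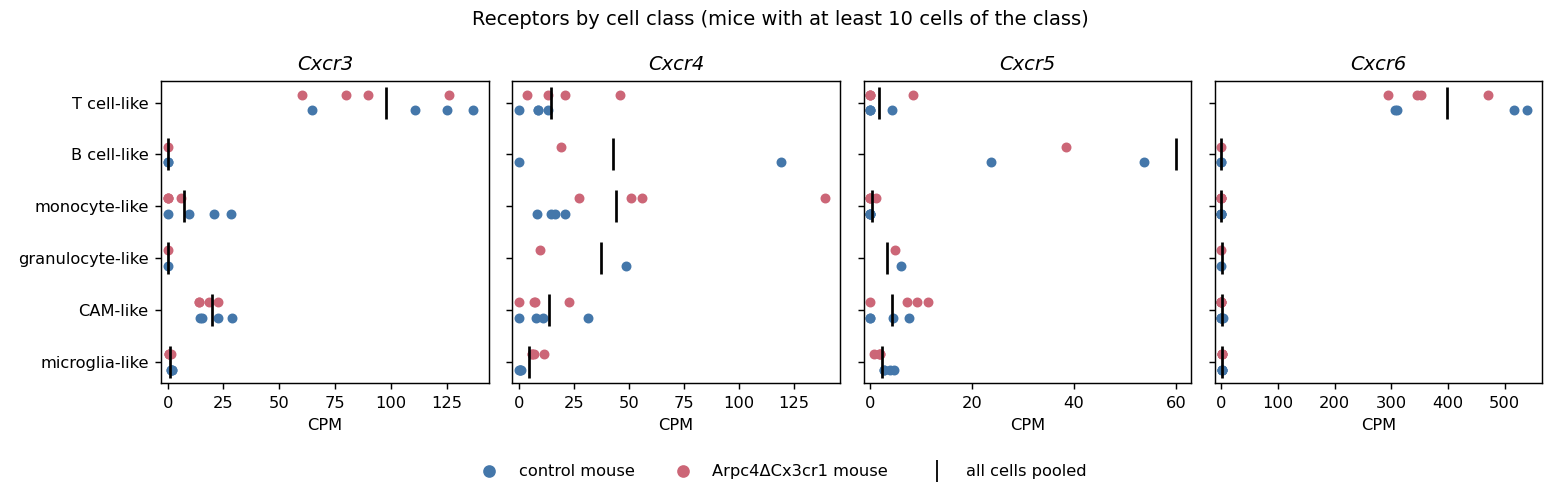
Level of Cxcr3, Cxcr4, Cxcr5 and Cxcr6 in the named cell classes, in CPM, with 1 point per mouse that had at least 10 cells of the class, coloured by genotype, and a black tick for all cells of the class pooled. Cxcr6 and Cxcr3 are highest in T cell-like cells (295 to 540 and 60.4 to 137 CPM), Cxcr5 in B cell-like cells, and Cxcr4 is found in monocyte-like, B cell-like and granulocyte-like cells.

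Within the T cell-like class Cxcr6 followed the sub-clusters. It stood at 1288 CPM, with a UMI in 96.9% of 32 cells, in the sub-cluster with the γδ T cell gene Trdc, and at 666 CPM in the sub-cluster with Cd8a (80 cells). The sub-cluster led by Il1rl1, with Gata3 at 559 and Cd3e at 10.4 CPM, had 445 CPM, and that with the natural killer cell gene Ncr1 had 203 CPM, so the class also held lymphoid cells with little Cd3e. Cxcr3 was highest in the Cd8a sub-cluster, at 191 CPM.

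Over 43 sums per mouse and class, which share mice and library, the genes most like Cxcr6 were Skap1 (Pearson's r = 0.987), Trbc2 and Gm2682, those most like Cxcr3 were Gzma (r = 0.775), Ptpn18 and Cd8a, those most like Cxcr4 were Stap1 (r = 0.738), Heg1 and Ezr, and those most like Cxcr5 were Iglc2 (r = 0.645), Gm39556 and Iglc1.

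The receptors of CXCL10 and CXCL16 on T cells did not pass the test between genotypes. Cxcr6 was at 307, 310, 540 and 517 CPM in the T cell-like cells of control mice and at 345, 295, 470 and 352 CPM in those of Arpc4ΔCx3cr1 mice (log2 fold change −0.15, SE 0.20, adjusted p = 0.838, edgeR). Cxcr3 was at 137, 64.6, 125 and 111 CPM and at 79.9, 60.4, 126 and 89.8 CPM (−0.18, SE 0.28, adjusted p = 0.877, edgeR). The groups overlapped widely for both. The class held 133 control and 176 Arpc4ΔCx3cr1 cells, and these errors leave room for moderate changes.

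The single called member in T cell-like cells, where 1.40% of 4204 tested genes were called higher, was the ligand gene Cxcl16. It was at 25.6, 8.62, 27.4 and 19.6 CPM in control and 172, 161, 92.3 and 93.4 CPM in Arpc4ΔCx3cr1 mice (log2 fold change 2.69, SE 0.37, adjusted p = 5.17e-05, edgeR). The summed microglia markers, all 10 of them detected, were at 7126 to 8237 CPM in control and 2980 to 4960 CPM in Arpc4ΔCx3cr1 T cell-like cells. Their part in the Cxcl16 values was not tested. Without the 5% of cells with the most UMIs Cxcl16 was too rare to be tested in the class, and called genes went from 168 to 15. Cxcl10 in T cell-like cells had a log2 fold change of 1.54 (adjusted p = 0.493, edgeR), and of the 90 UMIs in Arpc4ΔCx3cr1 mice 71 lay in 1 cell of mouse 2. Without that mouse the log2 fold change was −1.01. Cxcl13 was too rare to be tested in the class, but was called when Arpc4ΔCx3cr1 mouse 1 (3.06, adjusted p = 0.0193, edgeR) or mouse 2 (3.04, adjusted p = 0.0245) was left out.

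In CAM-like cells, where 1.21% of 3064 genes were called, Cxcl16 was the one member with enough UMIs to test. It stood at 194, 220, 190 and 203 CPM in control and 412, 248, 321 and 176 CPM in Arpc4ΔCx3cr1 mice. Mouse 4 lay below all controls and the other 3 above them. The log2 fold change was 0.58 (SE 0.25, adjusted p = 0.343, unadjusted p = 0.0281, edgeR), and DESeq2 gave an adjusted p of 0.696. With coarser clusters, where the class took in the Ms4a7-led cells, the log2 fold change was 1.25 (adjusted p = 1.69e-05).

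In monocyte-like cells, where 5.83% of 3325 genes were called, Cxcl16 had a log2 fold change of −0.30 (SE 0.47, adjusted p = 0.833, unadjusted p = 0.528, edgeR, and 0.999 adjusted in DESeq2). Cxcr4 was at 14.4, 16.2, 8.13 and 21.0 CPM in control and 27.2, 50.8, 139 and 56.2 CPM in Arpc4ΔCx3cr1 mice, without overlap. Its counts did not pass the filter on low values, so it was not tested in the main comparison. Without that filter edgeR gave a log2 fold change of 2.17 (adjusted p = 5.01e-04), and DESeq2 gave 2.10 (adjusted p = 0.0770). Without Arpc4ΔCx3cr1 mouse 1 it passed the filter (2.52, adjusted p = 0.0196, edgeR). Marker levels in the class differed between genotypes, and whether its makeup did was not tested. Summed monocyte markers, with all 8 detected, were at 1287 to 1912 CPM in control and 2064 to 4063 CPM in Arpc4ΔCx3cr1 mice, and summed dendritic cell markers at 1120 to 1568 CPM (8 of 8 detected) and 327 to 956 CPM (6 of 8, with Ccr7 and Ccl22 at 0), and their part in the Cxcr4 values was not tested.

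Whether a genotype effect differed between microglia-like cells and another class was tested in 15 comparisons of per-mouse log2 levels by exact permutation. None had an adjusted p under 0.05, and the lowest was 0.0857 (raw exact permutation p = 0.0286, the smallest that 4 against 4 mice allow). Among those, the effect on Cxcl16 was larger in microglia-like cells than in CAM-like cells by 2.01 and than in monocyte-like cells by 2.86 on the log2 scale. Against T cell-like cells the difference was −0.21 (raw exact permutation p = 0.600).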

How the data were processed

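CD45+ brain cells of 4 control and 4 Arpc4ΔCx3cr1 mice were taken as grouped by the labels, with 1 tag per mouse in 1 pool. The authors ran Cell Ranger (7.1.0 per the file headers, 6.1.2 per the submitters' processing notes) on mm10 and deposited raw UMI counts per gene and cell, not normalized and not corrected for free RNA. The labelled tag led in all 8 mice and tag counts were kept out of totals.

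Cells of under 200 genes or over 20% mitochondrial UMIs were removed and the rest clustered with Seurat 5.3.0 (20 principal components of 10000 variable genes, resolution 0.8, CXC genes and Arpc4 left out). Clusters were named from marker lists by limits set after the clusters had been seen. No doublets were removed, and removing the 5% of cells with the most UMIs was an alternative. Counts were summed per mouse and class (at least 10 cells), giving 4213397 to 11690546 UMIs per mouse in microglia-like cells, and compared by the quasi-likelihood test of edgeR 4.0.16 in R 4.3.3 after filterByExpr and TMM scaling, at an adjusted p under 0.05. The script was tested on simulated data. DESeq2 1.42.0 was an alternative. CPM given per mouse are scaled by the total alone, while the group means of Il1b and Adam10 are TMM scaled as well. Shares were compared by exact permutation in scipy 1.17.1. Binomial and counting intervals cover counting error only. Positions come from GENCODE vM21.

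The genes named are the 8 members, further CXC genes, up to 3 called genes with the largest change per list, and the 3 genes most like each member, besides list members used to describe co-detection. The members and lists were chosen with earlier results of these data known. The p-values measure the spread between mice of 1 pool. Some further results on T cell-like cells and motifs are not reported here.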

Additional observations from a re-analysis of the deposited data

Results flagged for a closer look

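Among 54 groups of 4 mice screened, 10 held a mouse whose gap to the others exceeded the 95% critical value of Dixon's test, which chance exceeds in about 1 in 20 groups. In microglia-like cells these were Cxcl13 in control mouse 1 (25.6 CPM, others 10.2 to 11.7), Cxcr3 in Arpc4ΔCx3cr1 mouse 2 (1.40 CPM, others 0.602 to 0.684), Cxcr4 in Arpc4ΔCx3cr1 mouse 1 (11.6 CPM, others 5.84 to 6.78) and Cxcr5 in Arpc4ΔCx3cr1 mouse 4 (0.684 CPM, others 1.77 to 1.99). The thinned shares of the same cells stood apart for Cxcr3 in Arpc4ΔCx3cr1 mouse 2 (0.363%, others 0.129 to 0.141%) and for Cxcr4 in Arpc4ΔCx3cr1 mouse 1 (2.73%, others 1.16 to 1.36%).

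In the rarer classes Cxcl10 stood apart in T cell-like cells of Arpc4ΔCx3cr1 mouse 2 (510 CPM, others 0 to 54.6) and in monocyte-like cells of Arpc4ΔCx3cr1 mouse 1 (53.2 CPM, others 0). Cxcl13 stood apart in CAM-like cells of control mouse 3 (15.7 CPM, others 3.62 to 4.84) and in monocyte-like cells of Arpc4ΔCx3cr1 mouse 1 (111 CPM, others 0 to 5.14). These classes hold few cells per mouse, so single cells weigh heavily in these values.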

How the results depend on the processing

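In microglia-like cells Cxcl10, Cxcl13, Cxcl16 and Cxcr4 kept direction and call in 16 of 16 alternatives and Cxcl2 in 14 of 14. Cxcl2 had too few counts to be tested without the Ms4a7-led cluster or with coarser clusters. The call of Cxcr3 was lost in 9 of 15 alternatives (DESeq2 adjusted p = 0.110) and that of Cxcr5 in 2 of 16. With each mouse left out in turn, 5 to 7 members were called, and Cxcr6, which could be tested in some of these fits, was not. Called among all genes were from 5173 of 12927 (without control mouse 3) to 6389 of 12870 (without Arpc4ΔCx3cr1 mouse 1). The differences in thinned shares ranged from 0.341 to 0.549 percentage points for Cxcl2, 1.64 to 2.21 for Cxcl10, 8.14 to 11.3 for Cxcl13 and 31.9 to 35 for Cxcl16, each without overlap, and p = 0.0571 is then the smallest the exact permutation test can give. In the other classes 1 member gene was called, 2 with coarser clusters, 7 without a filter on low counts, 0 without the 5% of cells with the most UMIs (edgeR, where Cxcl16 in T cell-like cells was too rare to be tested), and 1 to 3 with a mouse left out (3 without Arpc4ΔCx3cr1 mouse 1 and 2 without mouse 2, which added Cxcl13 in T cell-like and Cxcr4 in monocyte-like cells). The directions that turned were Cxcl10 in T cell-like cells (−1.01 without Arpc4ΔCx3cr1 mouse 2, up to 2.24 without another mouse) and Cxcr6 in T cell-like cells (0.05 without control mouse 3, down to −0.28 without another), neither called. The cause of these changes was not tested.

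Mice of the same number did not deviate together (correlations −0.0672 to −0.0145, beside −0.100 to 0.0760 for mice of different number). No pairing by number was seen, which does not show that none exists, and shared litters were not tested. With a replicate block all 7 tested members were still called in microglia-like cells and 1 in the other classes, while called genes went from 5848 to 5528 in microglia-like, 168 to 134 in T cell-like, 37 to 12 in CAM-like and 194 to 273 in monocyte-like cells. Counts of all called genes elsewhere moved by over 1.5 times. In T cell-like cells they were 282 without the filter, 101 with DESeq2, 104 without control mouse 2 and 15 without the 5% of cells with the most UMIs. In CAM-like cells they were 770 with coarser clusters, 128 without the filter, 14 without the 5% of cells with the most UMIs and 9 to 56 with a mouse left out. In monocyte-like cells they were 64 without the 5% of cells with the most UMIs and 64 to 233 with a mouse left out, and dropping the filter turned 82 higher and 112 lower calls into 180 and 89. Depth limits Cxcr3, Cxcr5 and Cxcr6 in microglia-like cells, which held 90, 175 and 65 UMIs of them. As a mean over the mice of both genotypes, each of the 8 members lay there below its level in empty droplets. In Arpc4ΔCx3cr1 mice alone the means were 322 CPM for Cxcl16, 220 for Cxcl13, 82.2 for Cxcl10 and 5.01 for Cxcl2. The levels in empty droplets were 247, 146, 63.2 and 4.67 CPM. The receptor means of these mice lay below their levels in empty droplets.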

Other observations

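The proliferating cells, 94 in number and in no comparison, were a cluster led by Elane, Prtn3 and Mpo. Of the 92 with at least 2000 UMIs, 35.9% held Cxcl16 and 14.1% held Cxcl13 after thinning. The exact 95% intervals were 26.1 to 46.5% and 7.74 to 23.0%. These shares pool the genotypes. Without thinning Cxcl16 was found in 38.9% of 36 control and 84.5% of 58 Arpc4ΔCx3cr1 cells. For Cxcl13 these shares were 2.78% and 31.0%. Cxcr4 was at 18.1 CPM in the proliferating cells. Pf4, a CXC ligand gene of macrophages, was at 2264 CPM in CAM-like and 10.6 CPM in microglia-like cells. Cxcl14 was found in 6.58% of microglia-like cells, and Cxcl1, Cxcl3, Cxcl5 and Cxcl15 had 3 UMIs or fewer each in that class.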
